A study of Mus musculus with 18 samples.

Results

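The genes described here handle retinoids, the vitamin A family whose active form, retinoic acid (RA), was used to turn the cells into spinal cord. They are 9 genes taken by symbol from 27179 in the count tables: the membrane receptors Stra6 and Stra6l, the RA-binding proteins Crabp1 and Crabp2, the retinol dehydrogenase Rdh10, the retinal reductase Dhrs3, the RA hydroxylases Cyp26a1 and Cyp26b1, and the RA receptor Rarb. They were listed with earlier results of these data in view. Stra6l was chosen by its own change in iHoxc9 and iHoxc10 neurons against control, seen there as the leading one after the induced gene, so its values are given as a description, without a test. Which values, if any, chose the other 8 is not recorded.

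RNA was sequenced from embryoid bodies of mouse embryonic stem cells directed towards spinal motor neurons with 1 µM all-trans RA and 0.5 µM of the hedgehog agonist SAG, which every group received, controls included. The 18 libraries form 6 groups of 3. Day 2 progenitors came from the iCre line, which carries no inducible Hox gene, before any doxycycline (Dox). The day 4 groups were control neurons, which are the iHoxc6 line left without Dox, and iHoxc6, iHoxc8, iHoxc9 and iHoxc10 neurons, in which 3 µg/ml Dox for 48 h turned on a Flag-tagged Hox gene at the HPRT locus. Each gene was carried by 1 line, the replicates were separate differentiations, and no group received Dox without a Hox transgene. Day 2 progenitors, control with iHoxc6, iHoxc8, and iHoxc9 with iHoxc10 were 4 sequencing runs. Only iHoxc6 against control and iHoxc9 against iHoxc10 are therefore compared within a run. Even there, Hoxc6 cannot be told apart from Dox in the first, nor each Hox gene from its line in the second. In every other comparison the Hox gene, its line and the sequencing run (and, against day 2, the time) cannot be told apart.

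Libraries held 24498630 to 33168533 counts on genes. Levels are in CPM, counts scaled to the library total after adjustment by trimmed mean of M values (TMM), and 3 counts in a library are worth 0.0883 to 0.122 CPM. The induced genes matched their labels. Hoxc6 stood at 515 CPM in iHoxc6, Hoxc8 at 389 in iHoxc8, Hoxc9 at 224 in iHoxc9 and Hoxc10 at 430.1 in iHoxc10, transgene reads included. All 6 motor neuron markers examined (Chat, Slc18a3, Isl1, Mnx1, Lhx3 and Slc5a7) were detected in every group, and their summed level was 495 to 525 CPM in control, 256 to 275 in iHoxc9 and 378 to 538 in the other induced neurons. In bulk RNA, fewer cells of a type and less RNA per cell cannot be told apart.

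As background, cells take up retinol with the help of STRA6-type receptors, RDH10 oxidises it to retinal, DHRS3 reduces retinal back, and retinaldehyde dehydrogenases such as ALDH1A2 complete the synthesis of RA. CRABP1 and CRABP2 carry RA in the cytoplasm, RAR and RXR receptors bind it in the nucleus, and CYP26 enzymes break it down. In the developing spinal cord RA patterns the neural tube and motor neuron subtypes, and several of its own handling genes, Cyp26a1 and Rarb among them, are classical targets of RA receptors through paired hexamer sites in their promoters.

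The promoters of 4 members are shown, Cyp26a1, Cyp26b1 and Stra6l because they carry the widest differences given below, and Rarb because it shares a paired site with Cyp26a1. Each is the 250 bases before a RefSeq transcription start (GRCm38.p6), read 5′ to 3′ on the gene's strand. The RefSeq spans of these genes begin further upstream, at 37697738 in Cyp26a1, 17082331 in Rarb, 84593908 in Cyp26b1 and 45824293 in Stra6l. The windows therefore lie partly or wholly within those spans. Capitals mark a direct repeat of 2 hexamers with 5 bases between them (DR5), each hexamer being A or G followed by either GTTCA or GGTCA, on either strand, in Cyp26a1 (chr19:37697558-37697807, plus strand) and Rarb (chr14:16575477-16575726, minus strand). Cyp26b1 (chr6:84593811-84594060, minus strand) holds none of these hexamers and no capitals. In Stra6l (chr4:45848566-45848815, plus strand) capitals mark TTTAT, letters preferred by posterior Hox proteins.
Cyp26a1: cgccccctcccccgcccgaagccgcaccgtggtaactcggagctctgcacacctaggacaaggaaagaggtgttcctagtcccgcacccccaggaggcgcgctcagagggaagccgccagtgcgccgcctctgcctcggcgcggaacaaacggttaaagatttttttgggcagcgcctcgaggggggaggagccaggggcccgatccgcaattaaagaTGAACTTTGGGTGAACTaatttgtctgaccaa
Rarb: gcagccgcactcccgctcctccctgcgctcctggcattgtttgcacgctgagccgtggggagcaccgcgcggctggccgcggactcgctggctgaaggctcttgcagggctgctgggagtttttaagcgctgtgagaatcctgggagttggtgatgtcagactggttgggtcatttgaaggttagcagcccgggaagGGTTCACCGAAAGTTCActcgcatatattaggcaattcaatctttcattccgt
Cyp26b1: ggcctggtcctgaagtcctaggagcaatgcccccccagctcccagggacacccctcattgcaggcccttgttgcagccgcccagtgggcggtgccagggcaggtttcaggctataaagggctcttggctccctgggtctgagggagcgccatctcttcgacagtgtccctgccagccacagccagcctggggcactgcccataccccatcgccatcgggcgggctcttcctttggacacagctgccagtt
Stra6l: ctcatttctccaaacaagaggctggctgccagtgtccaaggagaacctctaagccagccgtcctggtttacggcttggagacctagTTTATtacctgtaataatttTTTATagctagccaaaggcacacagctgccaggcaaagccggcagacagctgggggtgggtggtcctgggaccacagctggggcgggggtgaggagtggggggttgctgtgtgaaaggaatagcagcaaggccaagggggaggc
The DR5 lay 32 to 16 bases before the start used for Cyp26a1, on the opposite strand to the gene, and 53 to 37 bases before that used for Rarb. It occurred in 29 of 32851 mouse promoter windows of this length (0.0883%). TTTAT was common, in 37.3% of windows on either strand, and Cyp26b1 carried it on the opposite strand. On 1 strand or the other it lay in 1 of 4 windows of Stra6 and 1 of 3 of Dhrs3. The other of the 2 windows of Stra6l held none. No TTTAT overlapped a DR5 in these windows. Of the 9 members, 7 had at least 1 window, 13 windows in all, and Crabp2 and Rdh10 had none. The single windows of Cyp26a1 and Rarb were those that held a DR5, and these matches describe letters, not binding.

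Stra6l, which encodes a relative of the STRA6 retinol receptor (also called RBPR2), was read at the limit of detection in every group but the lines carrying Hoxc9 or Hoxc10. Its 3 libraries had 0.101, 0.0998 and 0.125 CPM at day 2, and 0.0321, 0 and 0.187 CPM in control neurons, from 6 counts in all. The iHoxc6 libraries had 0.349, 0.0934 and 0.243 CPM and the iHoxc8 libraries 0.118, 0.0334 and 0.219 CPM. In iHoxc9 they reached 62.7, 60.8 and 56.0 CPM, and in iHoxc10 24.4, 25.0 and 24.2 CPM. No library of iHoxc9 or iHoxc10 overlapped any other group, nor did these lines overlap each other, whereas the other 4 groups overlapped throughout their order. From summed counts, iHoxc9 lay 838-fold above control (95% counting interval 385 to 2283) and iHoxc10 343-fold (157 to 935). These intervals cover counting error only. The iHoxc9 level was 2.44-fold that of iHoxc10 within their shared run. The next gene on chromosome 4, Igfbpl1, was examined after these values were seen because its RefSeq span overlaps that of Stra6l (45824293 to 45887010) from the opposite strand, and the strand setting of the counting is not given in the sources used here. In GENCODE M21 they lie 21740 bases apart. Igfbpl1 rose from 37.3 ± 0.71 CPM (SD, n = 3) in control to 329 ± 25.3 in iHoxc9 (LFC 3.14, adjusted P = 2.35e-13). It was at 124 ± 8.31 CPM in iHoxc10, 133 ± 15.8 in iHoxc6 and 81.9 ± 3.77 in iHoxc8. Like Stra6l it was highest in iHoxc9, at 2.65-fold the level of iHoxc10. In iHoxc6 and iHoxc10, whose levels of Igfbpl1 were alike, Stra6l was at 0.228 ± 0.128 and 24.5 ± 0.442 CPM. The part of reads shared between these genes was not tested.

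Stra6, the receptor through which cells take up retinol from its plasma carrier, was present in all groups and followed another order. Control libraries held 19.8, 19.5 and 14.3 CPM, iHoxc9 17.7, 24.2 and 21.5 CPM, and iHoxc10 36.4, 41.4 and 42.3 CPM. All iHoxc10 libraries lay above all others of day 4. The log2 fold change (LFC) of iHoxc10 against control was 1.17 (SE 0.37, adjusted P = 0.0233 by edgeR), short of the threshold of 0.01. Fitted on those 2 groups alone, the LFC was 1.14 and the adjusted P 0.000224. The day 2 libraries were at 14.3, 18.3 and 76.5 CPM, the third of them far above the others. Against day 2 the LFC was -1.03 in control, -1.13 in iHoxc8 and -0.78 in iHoxc9, none passing, and without that library it became 0.13, 0.02 and 0.37. In iHoxc6 it went from -0.50 to 0.66 (adjusted P = 0.00121) and in iHoxc10 from 0.14 to 1.3 (adjusted P = 2.93e-07). Per kilobase of exon, Stra6l made up 63.4% ± 4.28 of the summed Stra6l and Stra6 level in iHoxc9, 27.2% ± 1.63 in iHoxc10 and at most 0.851% in any library of the other groups (SD, n = 3).

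**Figure D1:**
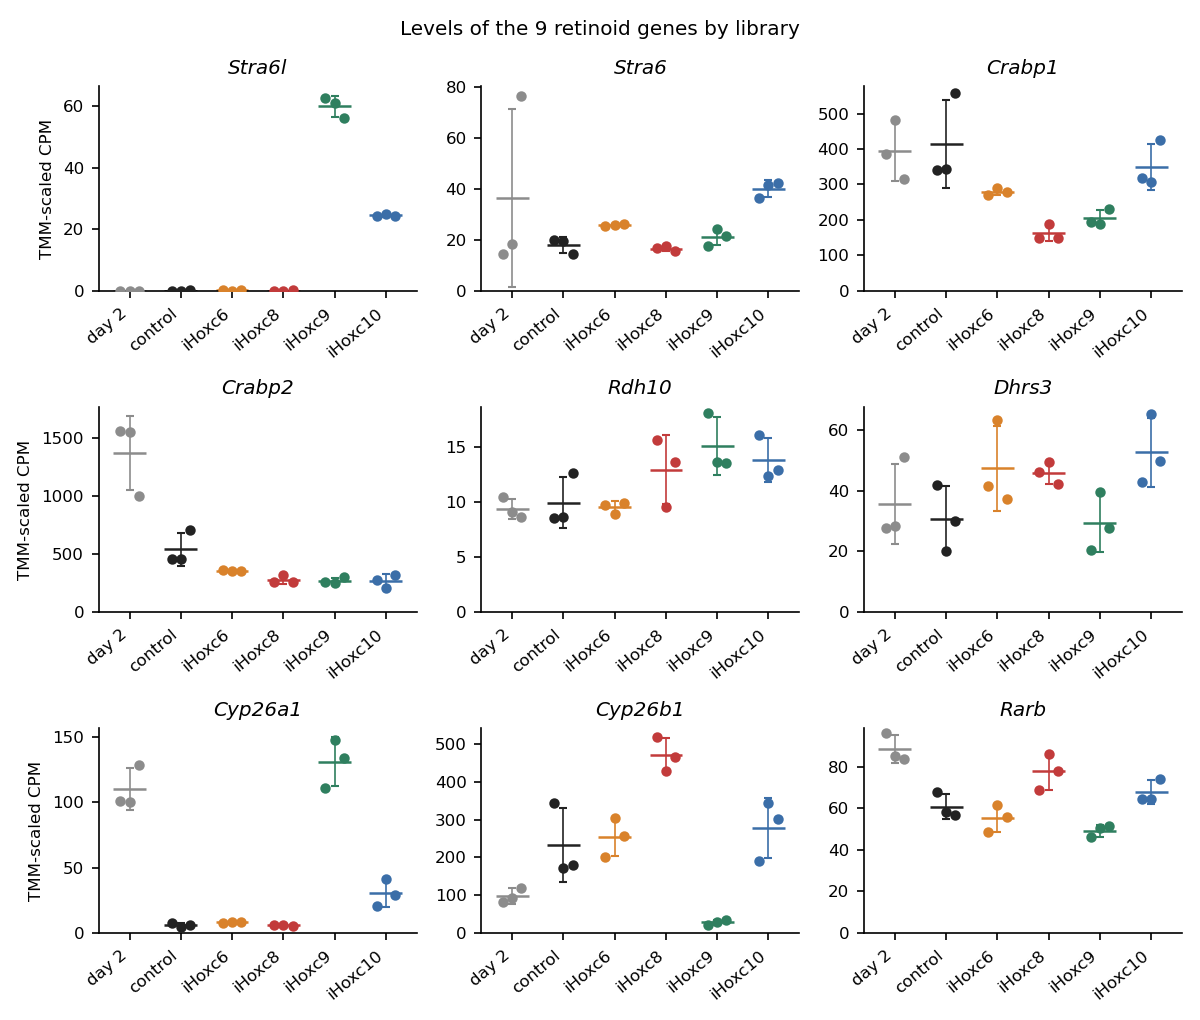
Level of each of the 9 genes in TMM-scaled CPM (linear axis from 0) in the 6 groups; points are libraries, long bars the mean and whiskers 1 SD of 3 libraries. Stra6l sits at 56.0 to 62.7 CPM in iHoxc9 and 24.2 to 25.0 in iHoxc10 and near 0 elsewhere, and Cyp26a1 and Cyp26b1 take opposite extremes in iHoxc9.

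A gene was counted as passing at an adjusted P under 0.01 across all 20944 genes tested. In iHoxc9 neurons 4 of the 8 members other than Stra6l passed against control, 1 higher and 3 lower, where 14.1% of all genes passed (6.95% higher, 7.13% lower). In iHoxc10 2 of 8 passed, 1 in each direction (14.4% of all genes, 6.67% higher and 7.75% lower), and in iHoxc8 2 of 8, both lower (2.12%, of which 1.03% higher and 1.09% lower). In iHoxc6 0 of 8 passed by edgeR or by DESeq2 (0.587%), with 4 at an unadjusted P under 0.05. Adding the study's fold threshold, an absolute LFC above 2, left 2 members in iHoxc9, Cyp26a1 and Cyp26b1 (2.7% of all genes), and Cyp26a1 alone in iHoxc10 (1.48%), with 0 in iHoxc8 (0.22%) and 0 in iHoxc6 (0.115%). The median LFC of the 8 members was -0.19 in iHoxc9 and 0.37 in iHoxc10, while that of all genes was at most 0.0171 in size in each comparison with control. All 4 comparisons share the control libraries.

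The paired RA hydroxylases went opposite ways in iHoxc9. Cyp26a1 had 7.42, 4.16 and 6.03 CPM in control and 111, 148 and 134 CPM in iHoxc9, an LFC of 4.48 (SE 0.23, adjusted P = 8.87e-12). In iHoxc10 it had 20.5, 41.4 and 29.0 CPM, an LFC of 2.36 (SE 0.22, adjusted P = 1.13e-07). Neither line overlapped control. The iHoxc6 libraries (7.60, 8.71 and 8.72 CPM) also lay above all of control, while those of iHoxc8 (6.27, 5.81 and 5.57 CPM) overlapped it. Both iHoxc6 and iHoxc8 stayed under 9 CPM. The LFC of iHoxc6 was 0.50 (SE 0.22, adjusted P = 0.186). Cyp26b1 had 345, 173 and 179 CPM in control and fell to 19.7, 29.3 and 33.9 CPM in iHoxc9, an LFC of -3.07 (SE 0.27, adjusted P = 2.61e-08). In iHoxc10 it was at 189, 344 and 301 CPM, overlapping control (LFC 0.26, 95% interval -0.23 to 0.75, adjusted P = 0.513). In iHoxc8 its libraries, at 517, 429 and 466 CPM, all lay above control, with an LFC of 1.02 (SE 0.25, adjusted P = 0.0171) that passed by DESeq2 (adjusted P = 0.00577) and, at 1.42, without control replicate 1 (adjusted P = 0.00277). The iHoxc6 libraries lay between 201 and 303 CPM, within the control range.

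Within the run they share, iHoxc9 exceeded iHoxc10 in Cyp26a1 by an LFC of 2.11 (SE 0.21, adjusted P = 2.75e-07) and lay below it in Cyp26b1 by an LFC of -3.33 (SE 0.28, adjusted P = 2.49e-08). These were the 2 of 8 members that passed between those lines (4.99% of all genes, 2.6% higher and 2.4% lower), and both were beyond an LFC of 2 (1.31%). Of the others, Crabp1 (LFC -0.77, adjusted P = 0.0101), Rarb (-0.46, adjusted P = 0.0264) and Dhrs3 (-0.84, adjusted P = 0.0585) were lower in iHoxc9 without overlap of libraries, as was Stra6 (-0.92, adjusted P = 0.145). Without a block, a fit of those 2 groups alone passed 6 members, these 4 added, and DESeq2 passed 4. Same-numbered libraries of the 2 lines deviated together, and blocking on that number gave 2 members passing in the fit of all libraries and 6 in one of these groups alone, the latter chosen after seeing the data. The 4.99% is that of the main fit, and the share of all genes passing was not taken for these other fits. Nor was the share of all genes without overlap of libraries taken, in this comparison or any other.

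In iHoxc9 the change of Cyp26a1 and Cyp26b1 against control was larger in make-up than in sum. Per kilobase of exon, Cyp26a1 supplied 75.3% ± 1.53 of the pair at day 2 (mean ± SD, n = 3) and 5.49%, 6.10% and 8.33% in the control libraries. The share was 92.8% ± 1.23 in iHoxc9 neurons, 22.6% ± 1.97 in iHoxc10, 8.28% ± 1.04 in iHoxc6 and 3.27% ± 0.221 in iHoxc8. The iHoxc9 and day 2 libraries stood far above the rest and iHoxc10 between. The sum of the pair was 73.8 ± 11.8 CPM per kilobase at day 2, 46.3 ± 18.9 in control, 71.3 ± 10.4 in iHoxc9 and 67.2 ± 19.9 in iHoxc10, and in these groups the libraries overlapped. The overlap with control rested on control replicate 1, at 68.2, the other control libraries being at 34.4 and 36.5. In iHoxc8 the sum was 90.9 ± 8.44, and its libraries (99.8, 83.0 and 89.8) all lay above control. The third hydroxylase, Cyp26c1, was at most 0.206 CPM in any library.

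**Figure D2:**
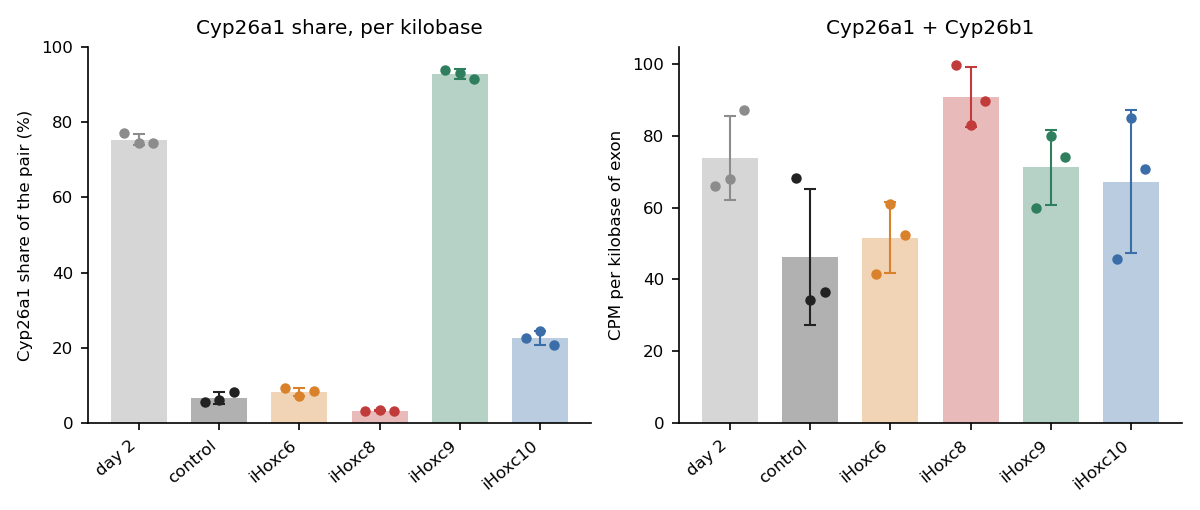
Left, share of Cyp26a1 in the summed per-kilobase level of Cyp26a1 and Cyp26b1 (%); right, that sum in CPM per kilobase of exon. Bars are means, whiskers 1 SD and points the 3 libraries of a group: the share moves from 6.64% in control to 92.8% in iHoxc9, while the sums of day 2, control, iHoxc9 and iHoxc10 overlap. The overlap with control rests on control replicate 1, and the sums of all iHoxc8 libraries lie above control.

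The RA-binding proteins fell in part of the induced lines. Crabp1 had 342, 344 and 557 CPM in control, and fell to 150, 189 and 149 CPM in iHoxc8 (LFC -1.35, SE 0.19, adjusted P = 0.000227) and 195, 189 and 230 CPM in iHoxc9 (LFC -1.02, SE 0.19, adjusted P = 0.000452). In iHoxc10 it was at 318, 306 and 424 CPM, overlapping control. Crabp2, which delivers RA to its receptors, had 456, 456 and 708 CPM in control and fell in iHoxc9 to 256, 247 and 299 CPM (LFC -1.01, SE 0.20, adjusted P = 0.00065) and in iHoxc10 to 273, 203 and 320.3 CPM (LFC -1.02, SE 0.20, adjusted P = 0.000596). In iHoxc8 it fell to 258, 315 and 259 CPM (LFC -0.96, SE 0.20, adjusted P = 0.00561), a call lost with the 2 groups alone (0.017) and without control replicate 3 (0.0567), iHoxc8 replicate 1 (0.0417) or iHoxc8 replicate 3 (0.0306). In iHoxc6 all libraries of both genes lay below control, with an LFC of -0.57 (adjusted P = 0.0899) for Crabp1 and -0.60 (adjusted P = 0.0866) for Crabp2.

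The proportion of the binding proteins was alike in control, iHoxc6 and iHoxc9 but not in iHoxc8 or iHoxc10. Per kilobase, Crabp2 made up 44.7%, 44.6% and 43.6% of the pair in the control libraries and 44.3%, 44.2% and 44.1% in iHoxc9, although the pair summed to 925 ± 264 CPM per kilobase in control and 458 ± 48.0 in iHoxc9. The sum was 412 ± 53.5 in iHoxc8, 636 ± 121 in iHoxc10 and 618 ± 9.26 in iHoxc6. The share in iHoxc6 was 44.8%, 42.5% and 43.8%. In iHoxc10 the share was 34.3%, 28.7% and 31.4%, in iHoxc8 51.1%, 50.3% and 51.3%, and at day 2 71.2%, 66.1% and 65.8%. The day 2, iHoxc8 and iHoxc10 libraries overlapped no control library.

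The enzymes that make retinal and reverse that step varied less. Rdh10 stood at 9.93 ± 2.33 CPM in control and 15.1 ± 2.61 in iHoxc9 (LFC 0.60, SE 0.19, adjusted P = 0.0243), and its iHoxc9 libraries, 18.1, 13.6 and 13.6 CPM, all lay above control. Dhrs3 stood at 30.8 ± 10.9 CPM in control and 52.7 ± 11.5 in iHoxc10 (LFC 0.78, SE 0.27, adjusted P = 0.0419). Neither passed in any induced line against control, and the libraries of neighbouring groups overlapped for both. Rarb, the receptor gene with the DR5, kept to a narrow band from 49.3 ± 2.90 CPM in iHoxc9 to 77.7 ± 8.76 in iHoxc8 at day 4, with 60.8 ± 6.01 in control. Its LFC was -0.30 (adjusted P = 0.0956) in iHoxc9 and 0.35 (adjusted P = 0.0953) in iHoxc8. Cyp26a1, with a DR5 of its own, spanned 5.87 to 131 CPM over the same groups. The part of the DR5 in the levels of either gene was not tested.

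**Figure D3:**
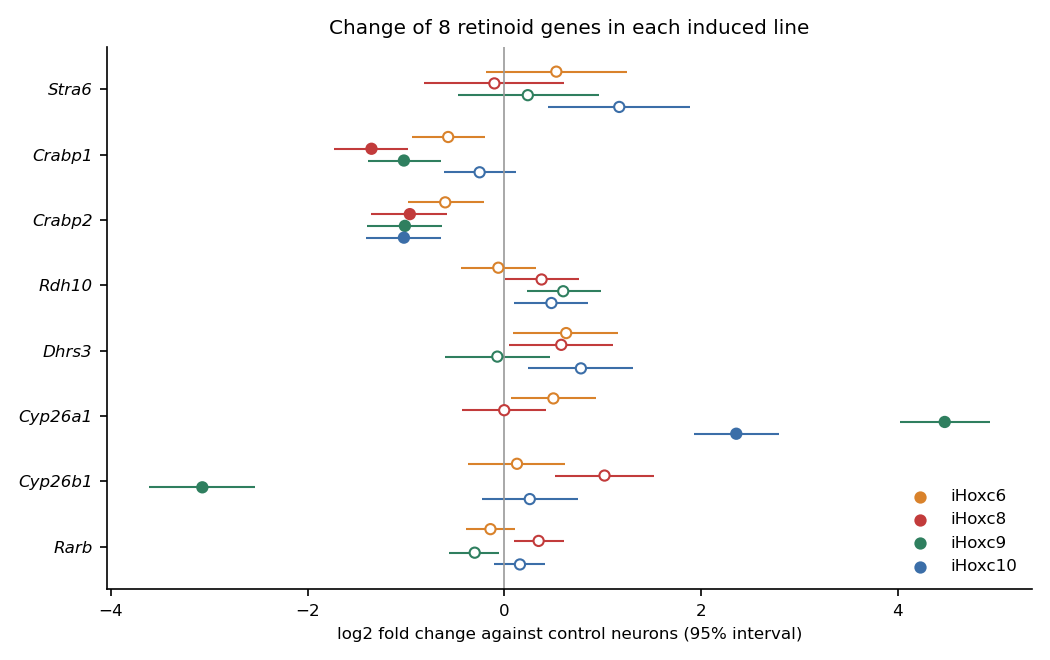
LFC of 8 members against control neurons (horizontal axis, log2) in the 4 induced lines. Bars are 95% intervals by a normal approximation from an SE derived from the edgeR test, and are somewhat narrow. Filled points have an adjusted P under 0.01, and Stra6l is left out. Cyp26a1 (4.48) and Cyp26b1 (-3.07) in iHoxc9 and Cyp26a1 (2.36) in iHoxc10 lie beyond 2, and the intervals of Crabp2 stay below 0 in all 4 lines.

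From day 2 progenitors to control neurons 4 of the 8 members other than Stra6l passed, 1 higher and 3 lower (42.4% of all genes, 21.2% in each direction). Cyp26a1 fell from 110.1 ± 16.2 to 5.87 ± 1.64 CPM (LFC -4.22, SE 0.23, adjusted P = 7.9e-13), Crabp2 from 1376 ± 322 to 540.0 ± 146 CPM (LFC -1.35, adjusted P = 4.51e-06) and Rarb from 88.4 ± 6.78 to 60.8 ± 6.01 CPM (LFC -0.54, adjusted P = 0.00124). Cyp26b1 rose from 97.8 ± 20.1 to 232 ± 97.7 CPM (LFC 1.25, adjusted P = 0.000258). The call on Rarb was lost with these 2 groups alone (adjusted P = 0.0346). In iHoxc9 neurons the level of Cyp26a1 overlapped that of day 2 progenitors (LFC 0.25, 95% interval -0.14 to 0.64, adjusted P = 0.301), while Cyp26b1 was lower (LFC -1.82, adjusted P = 2.9e-06). In iHoxc10 Cyp26a1 remained below day 2 (LFC -1.86, adjusted P = 5.3e-08). Against day 2 the 8 members other than Stra6l gave 5 passing in iHoxc9 (46.7% of all genes), 4 each in iHoxc6 (46.6%) and iHoxc8 (44.6%) and 3 in iHoxc10 (50.2%). Beyond an LFC of 2 the count was 1 for control (12.6%), iHoxc6 (14.8%), iHoxc9 (15.6%) and iHoxc10 (18.7%), and 3 for iHoxc8 (14.2%). Crabp2 was lower than at day 2 in all 4 lines, by an LFC of -1.95 to -2.37. The comparisons share the day 2 libraries.

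Neighbouring steps of the pathway were read from a list of 33 further retinoid genes, 32 of them tested. In iHoxc9 7 passed against control, 1 higher and 6 lower, in iHoxc10 4 (1 higher), and in iHoxc6 and iHoxc8 2 each (1 higher), where 14.1%, 14.4%, 0.587% and 2.12% of all genes passed, with a median LFC of -0.30, -0.28, -0.01 and -0.06. Lrat, which esterifies retinol for storage, was at 0.655 to 2.60 CPM in the control libraries and 0.0398 to 0.235 CPM in those of iHoxc9 (LFC -3.60, SE 0.64, adjusted P = 0.000261). The RA-synthesizing enzyme Aldh1a2 had 29.1 ± 5.29 CPM in control and rose to 88.5 ± 20.6 in iHoxc6 (LFC 1.61, adjusted P = 0.000135), 73.3 ± 20.7 in iHoxc8 (LFC 1.33, adjusted P = 0.000614) and 184 ± 20.1 in iHoxc10 (LFC 2.66, adjusted P = 1.6e-08). In iHoxc9 it was at 21.6 ± 4.63 CPM, and within their run iHoxc9 was lower by an LFC of -3.08 (adjusted P = 1.98e-09). Aldh1a1 and Aldh1a3 were at or below 0.289 CPM in every day 4 library. Rxrg, a retinoid X receptor, was lower than control in all 4 lines, by an LFC of -1.23 in iHoxc6 to -2.04 in iHoxc10, each passing. The RA receptor gene Rara lay between 76.4 and 112 CPM at day 4, and Rarg between 4.42 and 8.85 CPM. A second list held 12 genes known to respond to RA, 11 of them tested, of which, beside the same shares of all genes, 3 passed in iHoxc9 (1 higher), 2 in iHoxc10 (1 higher), 1 in iHoxc6 (higher) and 0 in iHoxc8 by either edgeR or DESeq2, with 1 at an unadjusted P under 0.05. Stra8, a gene named for its stimulation by RA, went from 163 ± 55.5 CPM at day 2 to 0.302 ± 0.128 CPM in control. For the first list the count in iHoxc9 was 4 without control replicate 1 or 3 or iHoxc9 replicate 1 or 2, and that in iHoxc10 was 2 without control replicate 1 or 3 or iHoxc10 replicate 1. In iHoxc6 it was 5 without control replicate 2. For the second list, the count in iHoxc10 was 1 without control replicate 1 or 3 or any 1 of its own libraries. In iHoxc6 it was 0 without control replicate 1 or 3 or iHoxc6 replicate 2 and 2 without control replicate 2, and in iHoxc8 it was 1 without control replicate 2.

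Among replicates, Cyp26a1 related to Cyp26b1 and Dhrs3 otherwise than over all 15 day 4 libraries, where Pearson's r was -0.81 and -0.17. Over those libraries Cyp26b1 with Dhrs3 (r 0.63) and Crabp1 with Crabp2 (r 0.68) went the same way as among replicates. After each library was set against its group mean on the log2(CPM + 1) scale, Cyp26a1 and Cyp26b1, opposite in iHoxc9, deviated the same way over the 15 day 4 libraries (Pearson's r 0.82, Spearman's rho 0.79, and r 0.79 without the 2 farthest libraries). Dhrs3 deviated with both (r 0.78 with Cyp26a1 and 0.74 with Cyp26b1), and so did Lrat (0.81 and 0.75). In 4 of 5 groups the library with most Cyp26b1 was also that with most Lrat. Crabp1 and Crabp2 formed a separate pair (r 0.93, rho 0.86), whose deviations followed the summed level of 5 neuronal markers (r 0.75 and 0.76), while Cyp26a1 and Cyp26b1 did not (-0.09 and 0.08). The same pair deviated against the summed glial markers (r -0.75 and -0.77), of which 1 of 3 reached a mean of 1 CPM in each group. Dhrs3 deviated with the mesenchyme markers (r 0.77) and those of the floor plate (0.68) and against the progenitor markers (-0.67). Of the 4 mesenchyme markers, 1 or 2 reached a mean of 1 CPM in a day 4 group. These values describe libraries that share a normalization and, within a group, a line and a run, and the part of cell make-up in them was not tested.

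**Figure D4:**
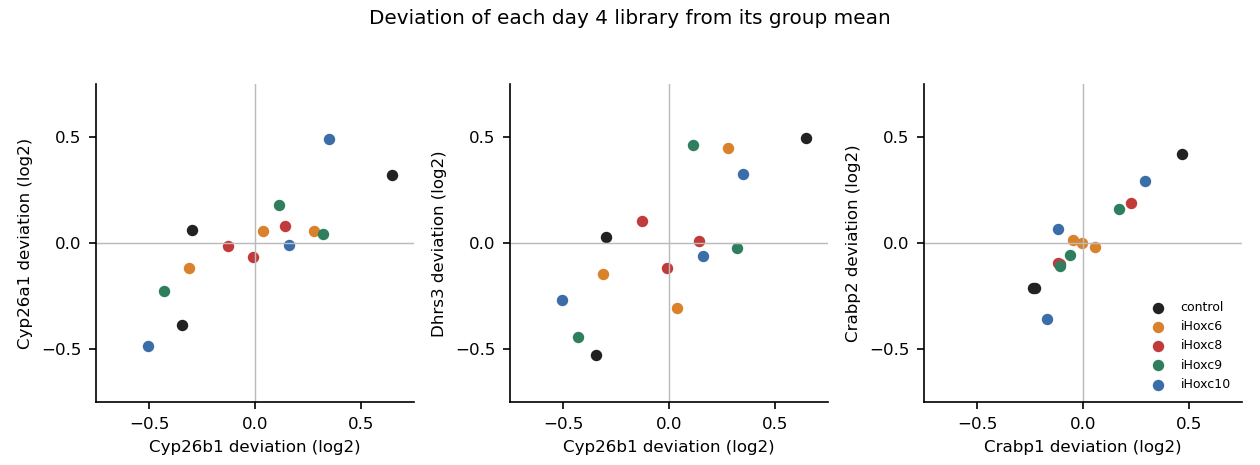
Deviation of each of the 15 day 4 libraries from its group mean, in log2(CPM + 1), for 3 pairs of members; colours are groups and grey lines mark 0. Cyp26b1 with Cyp26a1 (r 0.82), Cyp26b1 with Dhrs3 (r 0.74) and Crabp1 with Crabp2 (r 0.93) deviate together.

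Marker levels also differed between the lines. The summed floor plate markers Shh, Foxa2 and Ntn1, all 3 detected, were at 353 to 457 CPM in control and 235 to 353 in iHoxc9, against 543 to 754 for iHoxc6, 531 to 599 for iHoxc8 and 391 to 614 for iHoxc10. The 6 progenitor markers (Olig2, Nkx6-1, Sox2, Sox1, Hes5 and Mki67) summed to 204 to 424 CPM in control and 281 to 303 in iHoxc9, and the 6 interneuron markers, none at 0, to 15.4 to 19.3 CPM in control and 59.6 to 80.8 in iHoxc10. Of these interneuron markers 2 reached a mean of 1 CPM in control and 3 in iHoxc10. The 4 mesenchyme markers, none at 0, summed to 8.51 to 17 CPM in control, 3.94 to 8.45 in iHoxc9 and 2.91 to 3.69 in iHoxc10, against 9.14 to 15.3 for iHoxc6 and 10.9 to 16.6 for iHoxc8. Among them 1 reached a mean of 1 CPM in iHoxc10 and 2 in each other day 4 group. The 5 neuronal markers summed to 5366 to 5720 CPM in control and 6939 to 7918 in iHoxc10, and lay between 5717 and 6887 in the libraries of the other lines. The 3 neural crest markers summed to 1.08 to 1.41 CPM in control and 2.69 to 2.80 in iHoxc10, and the 3 glial markers to 3.37 to 8.4 CPM in control and 8.61 to 11.7 in iHoxc6. Of the neural crest markers 0 reached a mean of 1 CPM in control and 2 in iHoxc10, and of the glial markers 1 in control and 1 in iHoxc6. The part of all these markers in the values of the retinoid genes was not tested. Visceral endoderm markers, 6 genes with 0 to 3 of them at 0 in a group, summed to at most 1.58 CPM in any day 4 library, and the 3 pluripotency markers to at most 0.178 CPM.

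The genes whose pattern over the 15 day 4 libraries was most like each member were named by Pearson correlation of log2(CPM + 1) among 11335 genes. For Stra6l they were Adamts19 (r 0.984) and Tmcc3 (0.982), for Cyp26a1 Syk (0.985) and Masp1 (0.984), for Cyp26b1 Astn2 (0.985) and Lypd1 (0.958), and for Stra6 Btbd9 (0.952) and Adar (0.928). For Crabp1 they were Notch4 (0.936) and Ddah2 (0.905), and for Crabp2 Yrdc (0.971) and Adh5 (0.966), the last a member of the list of retinoid genes. Rarb was followed by Nefh (0.901), Dhrs3 by Map7 (0.899) and Rdh10 by Kantr (0.911). By Spearman's rho, Adamts19 ranked 264 and Tmcc3 95 for Stra6l, Syk 81 for Cyp26a1 and Map7 120 for Dhrs3. The other genes named here ranked from 1 to 14 for their members. The libraries form separate groups, so these values mostly restate the order of the lines.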

How the data were processed

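Poly(A) RNA from 18 libraries was sequenced. As deposited, the files hold raw counts per gene, which the authors made with STAR 2.7.0c and featureCounts on mm10 RefSeq genes keyed by Entrez ID; the strand setting is not given in the sources used here. Of 27179 genes, 25275 had a symbol. The 20944 genes with at least 1 count in a Dox-treated library were tested in 1 model of all 18 libraries by edgeR 4.0.16 quasi-likelihood tests (R 4.3.3, TMM, Benjamini-Hochberg adjustment over all genes), with the study's thresholds, an adjusted P under 0.01 and an absolute log2 fold change above 2. DESeq2 1.42.0 was an alternative. The members and gene lists were chosen with earlier results of these data known, so P-values describe these genes and are no independent support. Named genes were the members, the induced genes, listed genes past both thresholds in any comparison, the RA-synthesizing dehydrogenases, Rara, Rarg and Cyp26c1, and the 2 most correlated genes of each member; Igfbpl1 was added later, and some listed genes are not reported here. On simulated counts all altered genes were recovered, but these were well-counted genes given a large change in iHoxc9. Smaller changes and genes near the limit of detection were not simulated. Totals of 24498630 to 33168533 counts set the precision. Replicate numbers paired iHoxc9 with iHoxc10 most clearly, their same-numbered libraries deviating together (r 0.474 to 0.651 over genes). Same-numbered libraries of iHoxc10 and day 2 progenitors did so more weakly (r 0.0657 to 0.398). With 3 libraries a group, exact permutation tests cannot go below 0.10, and none was used. Promoters came from RefSeq (GRCm38.p6).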

Additional observations from a re-analysis of the deposited data

Results flagged for a closer look

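The RA hydroxylases differed between the 2 lines of the shared run. The LFC of Cyp26a1 against control was 2.11 larger in iHoxc9 than in iHoxc10 (SE 0.21, edgeR adjusted P = 2.75e-07, no overlap among 3 libraries each). For Cyp26b1 the same difference was -3.33 (SE 0.28, edgeR adjusted P = 2.49e-08), again with no overlap. Groups of 3 libraries are too small for a test of single outlying libraries, and the day 2 library with 76.5 CPM of Stra6 was therefore not tested.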

How the results depend on the processing

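Of 763 alternative values of 63 log2 fold changes, 712 were unchanged, 31 came to pass and 8 ceased to. Unchanged values kept their direction and their side of the threshold. For Stra6l among day 4 groups, which has no P, they lay within 1 SE of the main value. The 31 include Stra6, Crabp1, Rarb and Dhrs3 between iHoxc9 and iHoxc10 in the replicate block fit of those groups, chosen after seeing the data. Those of Stra6 against day 2 progenitors changed sign without day 2 replicate 3, to 0.13 in control, 0.66 in iHoxc6 (passing, against -0.88 without replicate 1), 0.02 in iHoxc8 and 0.37 in iHoxc9, and reached -1.43, -1.54 and -1.21 in control, iHoxc8 and iHoxc9 without day 2 replicate 1, each then passing. In iHoxc10 it was -0.24, -0.18 and, passing, 1.3 without day 2 replicate 1, 2 and 3. Stra6l against control moved between 9.11 and 11.4 in iHoxc9 and between 7.82 and 10.15 in iHoxc10 when a control library was left out, since 6 counts carry its control level. Adding the fold threshold lowered the members passing to 0 in iHoxc8, 2 in iHoxc9 and 1 in iHoxc10 against control. Against day 2 it left 1 of the 8 members other than Stra6l in control, iHoxc6, iHoxc9 and iHoxc10. In iHoxc8 the count of 2 against control was 1 with the groups compared alone and 1 to 3 without a library. It was 1 without control replicate 3 or iHoxc8 replicate 1 or 3, while leaving out control replicate 1 gave 3. Between iHoxc9 and iHoxc10 the count of 2 became 4 by DESeq2, 6 with these groups alone and 6 with the replicate block in a fit of these groups, the last chosen after seeing the data. Shares of all genes passing were taken for the main fit only, so counts from other fits have none beside them. The replicate block in the fit of all libraries gave the same number of members passing against control (0, 2, 4 and 2) and between iHoxc9 and iHoxc10 (2). For iHoxc10 against day 2 it gave 5 in place of 4, Stra6l included in both. Without a library, counts against day 2 ranged from 4 to 5 in control and iHoxc8 and 4 to 6 in iHoxc6. They were 4 to 6 in iHoxc10 and 5 to 7 in iHoxc9, where they include Stra6l, chosen by its own change in these lines. Of the other lists, the retinoid genes passing in iHoxc8 were 4 by DESeq2 and those in iHoxc10 2 with the groups alone; the RA-responsive genes passing were 3 in iHoxc6 and 5 in iHoxc9 by DESeq2, and 6 rather than 3 between iHoxc9 and iHoxc10 with these groups alone. Depth limits Stra6l outside iHoxc9 and iHoxc10, where 3 counts equal 0.0883 to 0.122 CPM. The causes of these shifts were not tested.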
